A study of Tachycineta bicolor and Sialia sialis and Hirundo rustica with 121 samples.

Results

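TH, DRD1 and DRD2 are 3 genes of dopamine synthesis and reception, chosen by name from the 10672 genes of a count table of songbird brain RNA, and all 3 had reads in each of 121 birds. The study measured gene expression by RNA sequencing in the ventromedial telencephalon of adult wild birds of 10 species, to ask how nesting strategy relates to behaviour, hormones and expression. Each of 5 families gave an obligate cavity nester and a partner with a more flexible habit. In Hirundinidae it was Tree Swallow, with the open cup nester Barn Swallow as partner. In Parulidae it was Prothonotary Warbler, beside Yellow Warbler, an open cup nester. In Passeridae it was Eurasian Tree Sparrow, beside House Sparrow, a facultative cavity nester. In Troglodytidae House Wren stood beside Carolina Wren, also facultative, and in Turdidae Eastern Bluebird beside American Robin, an open cup nester. Each species gave 6 males and 6 females, except Tree Swallow with 6 males and 7 females. All birds were caught in the Midwestern United States while territories were set up and nests built, before any egg was laid, and none was given an experimental treatment in the labels. Nesting strategy is a property of the species, so a difference within a family is a difference between species.

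TH encodes tyrosine hydroxylase, the rate-limiting enzyme that turns tyrosine into L-DOPA on the way to dopamine. In vertebrates most of the dopamine neurons that supply the striatum have their cell bodies, and so most of their TH transcripts, in the midbrain, outside the telencephalon. DRD1 encodes the D1 receptor, which raises cyclic AMP through the G protein Golf and adenylyl cyclase 5, and DRD2 encodes the D2 receptor, which lowers it through Gi and Go. Both receptors are known as markers of the GABA-releasing medium spiny neurons of the striatum, a ventral part of the telencephalon, while the pallium above it holds mainly glutamate-releasing neurons.

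The birds had total counts of 4526413 to 7549296. The unit of level is CPM, counts relative to all reads of the bird assigned to genes, with TMM scaling over all birds. It is not divided by gene length, so the level of a gene is compared between birds and never with that of another gene. TH rested on 7 to 194 reads a bird, DRD1 on 120 to 1925 and DRD2 on 16 to 356, so counting error weighs most on TH. Of 32 striatal neuron markers 25 had a row, none of them at 0 in all birds, and their summed level ran from 1589 to 4595 CPM. Among the 25 were genes of GABA neurons in general, such as GAD1, GAD2 and SLC32A1, so the sum is not of striatum alone. Markers of neighbouring tissue were also present: 7 of 21 preoptic and hypothalamic markers had a row, with a summed level of 21.1 to 538 CPM. Of the libraries 6 stood apart. In 4 of them (Eastern Bluebird male 12, Barn Swallow females 3 and 4, House Sparrow female 3) the profile correlated least with its own group among the 121. The library labelled Carolina Wren female 1 had 8.37 CPM of the female-specific gene CHD1W, against 54.7 to 67.9 CPM in the other libraries labelled female, and the library labelled Carolina Wren male 3 had 67.7 CPM, against 7.63 to 15.6 CPM in the others labelled male. The tests between the species of a family, by sex and on species means that use the 6 were also computed without them. So were the correlations of the 3 genes with each other over all birds. The order of species, the shares of variance, the correlations within species and the genes most like each of the 3 were computed with all birds only. By the same gene Eastern Bluebird male 13, which has the highest DRD1 of its species, also stood apart, at 10.1 CPM against 0 to 0.31 CPM in the other 5 males and 21.0 to 31.3 CPM in the females of its species. The same tests and correlations over all birds were computed without this bird too, where they use it, after seeing the data.

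TH was the least abundant of the 3 in reads and stood lowest in the sparrows. In Tree Swallow it ran from 7.60 to 16.2 CPM in males (median 10.3) and from 2.97 to 33.5 CPM in females (median 9.05). Barn Swallow had 8.51 to 31.4 CPM in males (median 16.7) and 7.25 to 29.3 CPM in females (median 11.2). The swallows held the highest TH values of the series, and within each sex the ranges of the 2 species overlapped. Prothonotary Warbler males had 6.19 to 13.7 CPM (median 9.50) and females 7.66 to 13.7 CPM (median 11.7). Yellow Warbler males had 5.11 to 13.9 CPM (median 10.3) and females 4.95 to 19.7 CPM (median 12.3). TH was steadiest in Prothonotary Warbler, where the highest bird had 2.21 times the level of the lowest. Eurasian Tree Sparrow had 2.05 to 11.8 CPM in males (median 4.56) and 2.24 to 7.35 CPM in females (median 3.70). House Sparrow had 1.59 to 17.6 CPM in males (median 4.07) and 1.60 to 14.8 CPM in females (median 3.97). Most sparrows lay below most birds of the other families, with a few sparrows as high as they were. House Wren had 3.09 to 12.0 CPM in males (median 6.44) and 6.14 to 24.6 CPM in females (median 11.7). Carolina Wren had 3.56 to 13.2 CPM in libraries labelled male (median 7.21) and 5.68 to 22.2 CPM in those labelled female (median 9.71). In both wrens the highest values were from females, with overlap between the sexes. Eastern Bluebird had 3.12 to 13.2 CPM in males (median 7.16) and 4.91 to 26.5 CPM in females (median 8.32). American Robin had 9.40 to 14.6 CPM in males (median 11.7) and 4.25 to 18.1 CPM in females (median 6.87), so that male robins lay in a narrow band inside the wider range of the females.

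DRD1 was high in wrens, warblers and sparrows and low in swallows and thrushes. Tree Swallow males had 32.2 to 107 CPM (median 75.4) and females 45.2 to 204 CPM (median 74.4). Barn Swallow males had 36.7 to 143 CPM (median 49.1) and females 30.1 to 91.4 CPM (median 67.5). The swallow species overlapped over nearly the whole range. Prothonotary Warbler males had 67.5 to 174 CPM (median 144) and females 161 to 252 CPM (median 176). Yellow Warbler males had 52.4 to 184 CPM (median 141) and females 115 to 215 CPM (median 165). In both warblers the lowest birds were males and the highest were females. Eurasian Tree Sparrow had 80.0 to 169 CPM in males (median 120.0) and 41.6 to 162 CPM in females (median 112). House Sparrow had 70.9 to 225 CPM in males (median 178) and 39.6 to 214 CPM in females (median 121). In both sparrows the lowest bird was a female and the highest a male. House Wren had 147 to 253 CPM in males (median 204) and 91.2 to 239 CPM in females (median 167). Carolina Wren had 116 to 321 CPM in libraries labelled male (median 159) and 152 to 225 CPM in those labelled female (median 205). No wren fell below 91.2 CPM, a level that most swallows and thrushes did not reach. Eastern Bluebird had 40.1 to 197 CPM in males (median 65.0) and 19.8 to 120.4 CPM in females (median 78.2). American Robin had 48.6 to 226 CPM in males (median 72.6) and 38.4 to 123 CPM in females (median 55.5). The highest thrushes were American Robin male 2 at 226 CPM and Eastern Bluebird males 13 and 14 at 197 and 165 CPM. The mean score of striatal markers, described below, was also higher in wrens and warblers than in swallows and thrushes. Its part in the differences of DRD1 between species was not tested.

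DRD2 was highest in House Wren. Tree Swallow had 5.62 to 30.6 CPM in males (median 11.2) and 5.34 to 40.2 CPM in females (median 15.7), and Barn Swallow had 4.33 to 28.3 CPM in males (median 6.55) and 4.72 to 18.0 CPM in females (median 9.87). Prothonotary Warbler had 10.4 to 24.1 CPM in males (median 17.6) and 18.1 to 28.6 CPM in females (median 23.9), and Yellow Warbler had 3.60 to 21.3 CPM in males (median 15.3) and 10.9 to 28.9 CPM in females (median 17.4). In these 4 species the median was higher in females than in males, with overlap of the sexes in each. The same order of medians was found in House Sparrow, both thrushes and, narrowly and by label, Carolina Wren. Eurasian Tree Sparrow and House Wren had the higher median in males. Eurasian Tree Sparrow had 14.6 to 29.99 CPM in males (median 21.5) and 6.66 to 30.6 CPM in females (median 19.2), and House Sparrow had 4.61 to 28.0 CPM in males (median 12.7) and 3.20 to 37.5 CPM in females (median 15.0). House Wren had 28.4 to 53.5 CPM in males (median 37.3) and 9.86 to 37.3 CPM in females (median 25.4), and Carolina Wren had 9.15 to 24.1 CPM in libraries labelled male (median 16.6) and 13.1 to 25.3 CPM in those labelled female (median 16.7). All 6 House Wren males were above the highest Carolina Wren. Eastern Bluebird had 4.99 to 33.1 CPM in males (median 7.11) and 3.13 to 15.3 CPM in females (median 9.20), and American Robin had 4.84 to 39.2 CPM in males (median 10.5) and 5.64 to 42.3 CPM in females (median 14.7). The highest thrushes lay well above the medians of their groups.

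**Figure D1:**
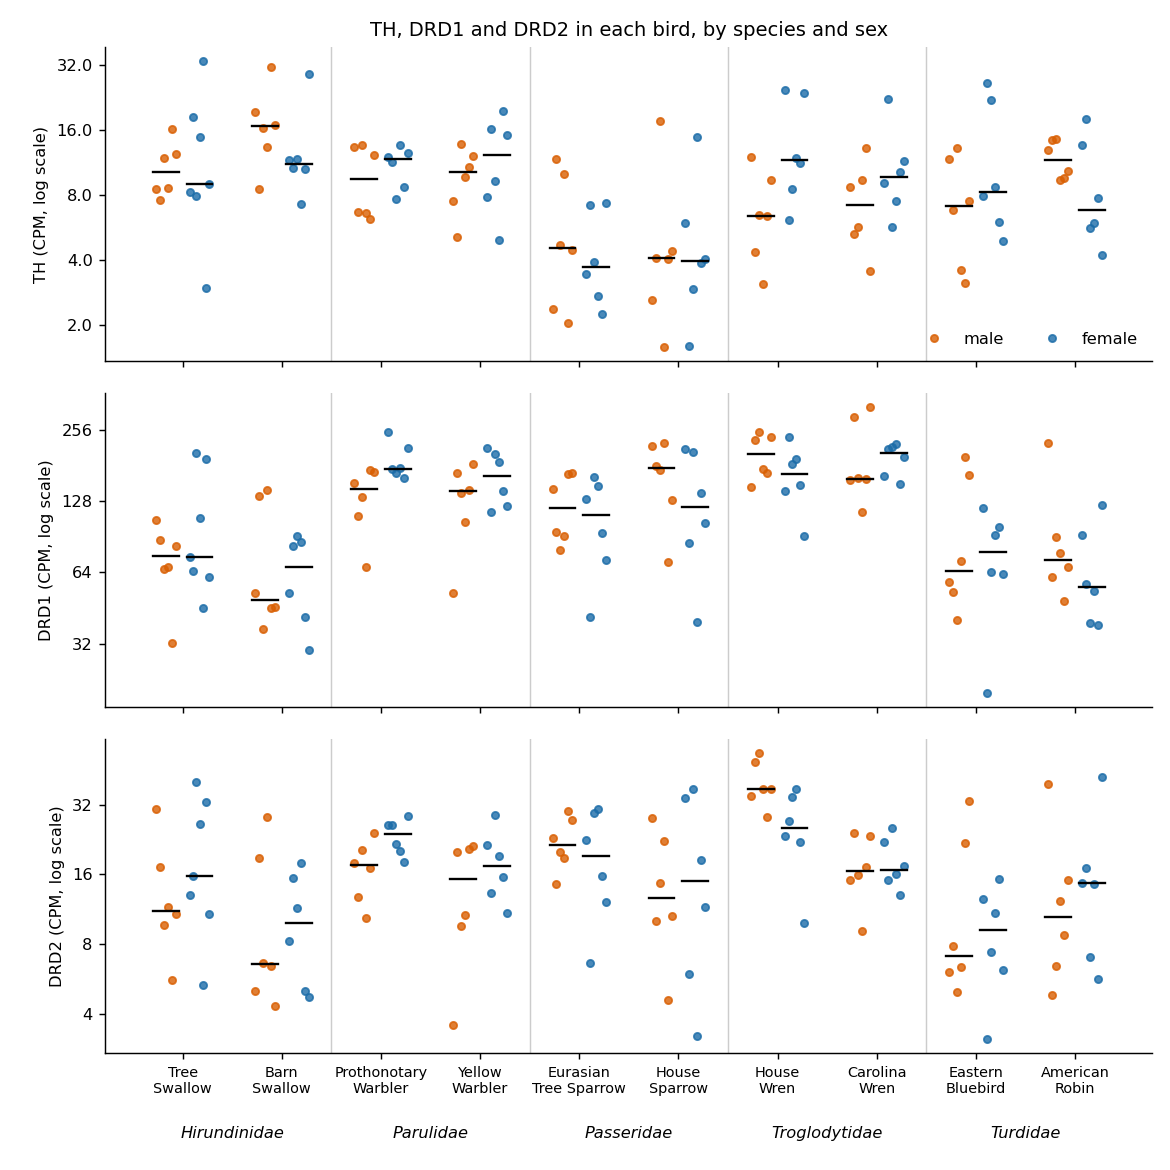
TH, DRD1 and DRD2 in CPM on a log axis, 1 point a bird, males in orange left of females in blue, with a bar at the median of 6 birds (7 for Tree Swallow females) and the obligate nester left of its partner in each family. TH is lowest in the sparrows, DRD1 is high in wrens and low in swallows and thrushes, and all 6 House Wren males lie above every Carolina Wren in DRD2.

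Ordered by the mean log2 CPM of the species, TH went from Barn Swallow at the top through Tree Swallow, Yellow Warbler, Prothonotary Warbler, American Robin, House Wren, Carolina Wren and Eastern Bluebird to Eurasian Tree Sparrow and House Sparrow. The widest step, 0.86 on the log2 scale, lay between Eastern Bluebird and Eurasian Tree Sparrow (permutation test, two-sided, p = 0.0223, adjusted p = 0.301 over 27 steps, n = 12 each). DRD1 was ordered Carolina Wren, House Wren, Prothonotary Warbler, Yellow Warbler, House Sparrow, Eurasian Tree Sparrow, Tree Swallow, Eastern Bluebird, American Robin and Barn Swallow, so that the species of a family stood side by side in 4 of the 5 families. DRD2 was ordered House Wren, Prothonotary Warbler, Eurasian Tree Sparrow, Carolina Wren, Tree Swallow, Yellow Warbler, House Sparrow, American Robin, Eastern Bluebird and Barn Swallow. Its widest step was the 0.63 between House Wren and Prothonotary Warbler (permutation test, p = 0.00841, adjusted p = 0.227, n = 12 each). No step of any of the 3 genes passed an adjusted p of 0.05 (0 of 27). Neighbours in an order taken from the same data differ least, so these steps say nothing of species farther apart. In each gene 0 of 45 pairs of species had ranges that did not overlap, and the share over all genes was not computed.

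Family accounted for 30.2% of the variance of log2 TH, 42.3% of that of DRD1 and 18.1% of that of DRD2, against a median of 40.5% over all genes. Species within a family accounted for only 1.46%, 1.97% and 10.7% in the same order of genes, against a median of 21.2%. Sex accounted for 0.67%, 0.08% and 0.09%, against a median of 0.13%. The residual was 67.7% for TH, 55.7% for DRD1 and 71.1% for DRD2, against a median of 28.8%. It holds the spread between birds of a species and sex, and any sex difference that varies between species. As an SD of log2 CPM between birds of a species and sex, the spread was 0.74 for TH, above 90.4% of 2573 genes with a mean level within a factor of 2 of it. It was 0.66 for DRD1, above 99.0% of 2834 such genes, and 0.81 for DRD2, above 98.0% of 3803 such genes. These are descriptions, with no test, and most of what the 3 genes do in this table is to differ between birds of the same kind.

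The question of nesting strategy was put within each family, obligate nester over partner, with edgeR's quasi-likelihood test and adjustment over all genes. DRD2 was higher in House Wren than in Carolina Wren, with means of 32.9 ± 11.8 CPM in House Wren and 17.9 ± 4.91 CPM in Carolina Wren (SD over 12 birds of each). The log2 difference was 0.89 ± 0.19 (SE, adjusted p = 0.000217). It was the only call among the 15 comparisons of 3 genes in 5 families, where 56.9% of all genes were called between the wrens, 54.8% between the swallows, 55.4% between the warblers, 49.0% between the sparrows and 56.3% between the thrushes. A share of 1 in 15 lies far below that background. The 3 genes also spread more between birds of a species and sex than most genes of like level. A missing call therefore does not show a small difference between species. Of 12 House Wrens 9 were above the highest Carolina Wren. The difference did not pass among females alone (0.51, edgeR adjusted p = 0.115). The summed striatal markers ran from 2373 to 3395 CPM in House Wren and from 2412 to 4221 CPM in Carolina Wren. The part of striatal content in the difference of DRD2 was not tested.

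In the other families DRD2 was not called. Tree Swallow had 17.7 ± 11.2 CPM and Barn Swallow 11.0 ± 7.57 CPM (SD), a log2 difference of 0.68 ± 0.35 (SE, adjusted p = 0.102). The warblers differed by 0.34 ± 0.21 (adjusted p = 0.173) and the sparrows by 0.31 ± 0.33 (adjusted p = 0.467), both with the obligate nester higher. In the thrushes the sign was the other way, with 11.3 ± 8.60 CPM in Eastern Bluebird and 15.7 ± 12.4 CPM in American Robin, a difference of -0.48 ± 0.38 (adjusted p = 0.294). The difference of DRD2 between obligate nester and partner itself varied with the family (edgeR F test, adjusted p = 0.0451), a test that 89.5% of all genes passed and that DRD2 missed without the 6 libraries (adjusted p = 0.0577). TH and DRD1 did not pass it (adjusted p = 0.805 and 0.315).

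DRD1 differed by 0.40 ± 0.28 between the swallows, 0.15 ± 0.17 between the warblers, -0.36 ± 0.24 between the sparrows, -0.06 ± 0.15 between the wrens and 0.11 ± 0.29 between the thrushes (log2 difference ± SE, obligate nester over partner, adjusted p of 0.239 to 0.762). TH differed by -0.30 ± 0.28, -0.06 ± 0.20, -0.13 ± 0.38, 0.17 ± 0.27 and -0.08 ± 0.31 in the same order of families (adjusted p of 0.383 to 0.854). None of these 10 differences passed. Each SE of an edgeR fit was derived from the F statistic of the test, so it is not separate evidence.

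**Figure D2:**
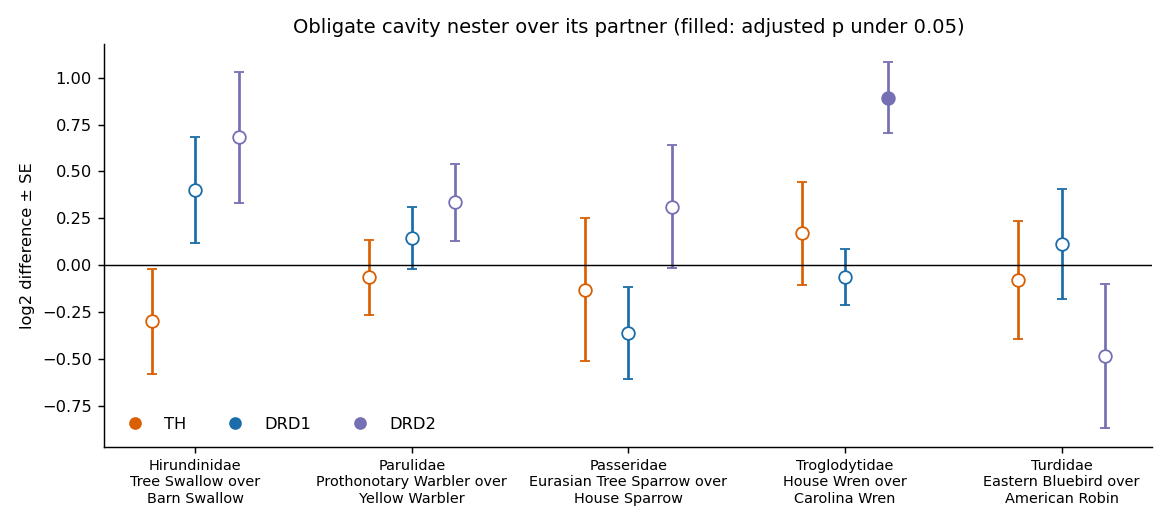
Log2 difference of TH, DRD1 and DRD2, obligate cavity nester over its partner, in 5 families, with bars of 1 SE derived from edgeR's F statistic. A filled point has an adjusted p under 0.05. Only DRD2 between the wrens is filled, at 0.89, and DRD2 has the opposite sign in Turdidae, at -0.48.

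Across the 10 species means, with family as a block, obligate nesters over partners differed by -0.10 ± 0.16 in TH, 0.04 ± 0.17 in DRD1 and 0.40 ± 0.22 in DRD2 (log2 difference ± SE, limma, adjusted p = 0.963, 0.994 and 0.952). The unadjusted p of DRD2 was 0.110, with the obligate nester higher in 4 of 5 families. Of 10648 genes tested on the species means, 0 passed (0%), while 476 had an unadjusted p under 0.05, so this design called no gene at all.

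Sex had no called effect on any of the 3 genes. Over all species, males over females, TH differed by -0.20 ± 0.14 (log2, SE, edgeR adjusted p = 0.754), DRD1 by 0.06 ± 0.12 (adjusted p = 0.974) and DRD2 by -0.04 ± 0.14 (adjusted p = 0.988), in a test that called 5.22% of all genes. Over all species 0 of the 31 genes of the dopamine lists were called by sex either. Within species 0 of the 30 comparisons passed, where the share of all genes called was 1.84% in House Sparrow, 1.87% in Eastern Bluebird, 2.03% in American Robin, 2.21% in Barn Swallow, 2.73% in Yellow Warbler, 2.80% each in Eurasian Tree Sparrow and Prothonotary Warbler, 3.39% in Tree Swallow and 4.78% in House Wren. In Carolina Wren edgeR called 0 of 10423 genes with the labels as given (0%), where 584 had an unadjusted p under 0.05 and DESeq2 called 20, and without the libraries labelled female 1 and male 3 it called 250 genes (2.40%). Among the dopamine list genes 2 were called by sex within a species and are named for that reason, after their values were seen. PPP1R1B, the gene of the phosphatase inhibitor DARPP-32, was 154 ± 44.3 CPM in male House Wrens and 47.2 ± 23.9 CPM in females (log2 difference 1.73 ± 0.29, edgeR adjusted p = 0.00196), and PCBD1, which recycles the cofactor of TH, was 18.4 ± 3.16 CPM in male Prothonotary Warblers and 11.4 ± 2.01 CPM in females (0.69 ± 0.15, adjusted p = 0.0173). For the 3 genes the lowest adjusted p by sex were in House Wren, where TH was 6.95 ± 3.27 CPM in males and 14.4 ± 7.85 CPM in females (log2 difference -1.03 ± 0.38, adjusted p = 0.128). DRD2 went the other way there, with 40.1 ± 9.37 CPM in males and 25.8 ± 9.85 CPM in females (0.68 ± 0.24, adjusted p = 0.126). In Prothonotary Warbler, males over females, DRD1 differed by -0.51 (adjusted p = 0.362) and DRD2 by -0.46 (adjusted p = 0.516). Larger differences in other species did not pass either, such as -0.72 for TH in Eastern Bluebird (adjusted p = 0.999) and -0.54 for DRD1 in Tree Swallow (adjusted p = 0.896). Neither the dependence of the sex difference on species (1.06% of genes called) nor that on nesting strategy (0.0564% called) was called for TH, DRD1 or DRD2 (edgeR, adjusted p of 0.789 to 0.880 and 0.805 to 0.868).

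How the 3 genes vary together was measured on each bird's log2 CPM after the mean of its species and sex was taken off. DRD1 and DRD2 moved together closely, with r = 0.90 and rho = 0.89 over 121 birds (permutation within species and sex, p = 1e-05, the smallest that 100000 permutations can give, adjusted p = 3e-05 over 3 relations). A difference of 1 in log2 DRD1 came with one of 1.11 in log2 DRD2. TH moved against both receptors, with r = -0.46 and rho = -0.43 for DRD1 (permutation p = 2e-05, adjusted p = 3e-05) and r = -0.40 and rho = -0.40 for DRD2 (permutation p = 6e-05, adjusted p = 6e-05). Without the 2 birds farthest from the median of the x axis the values were 0.89, -0.45 and -0.38. Eastern Bluebird female 11 shows the pattern at its extreme, with 26.5 CPM of TH beside the lowest DRD1 of all birds, 19.8 CPM, and the lowest DRD2, 3.13 CPM. Carolina Wren male 8 stood at the other end, with 3.56 CPM of TH beside the highest DRD1 of all birds, 321 CPM. In a bulk sample fewer cells of a type and less RNA per cell cannot be told apart.

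**Figure D3:**
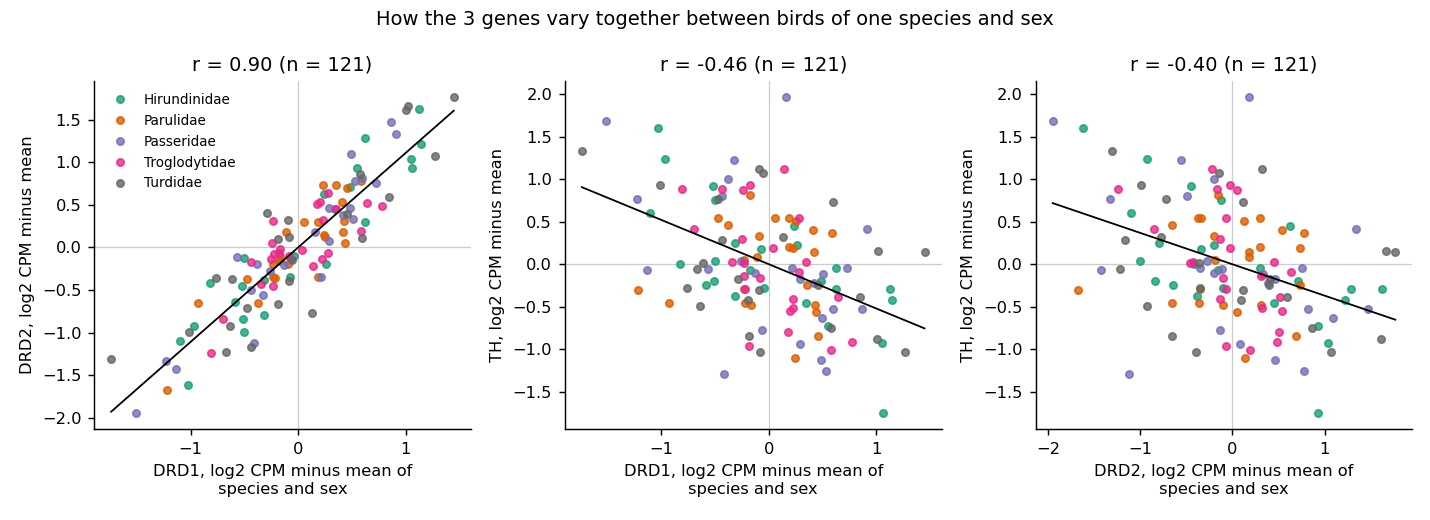
Deviations of log2 CPM from the mean of the bird's species and sex, 1 point a bird coloured by family, with a least-squares line: DRD2 against DRD1, TH against DRD1 and TH against DRD2. DRD2 follows DRD1 closely (r = 0.90), while TH falls as either receptor is higher, with wide scatter (r = -0.46 and -0.40).

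The tie between the receptors held in every species. Within species r of DRD2 with DRD1 ran from 0.76 in Carolina Wren to 0.96 in House Sparrow, and it passed in 10 of 10 species by Pearson's r and in 7 of 10 by Spearman's rho (permutation, adjusted over 30 relations, n = 12 or 13). American Robin rested most on single birds, since r there was 0.83 and fell to 0.49 without the 2 birds farthest out. TH with DRD1 was negative in 8 of 10 species and passed in 4 by Pearson's r, of which 2, the swallows, also passed by Spearman's rho. They were Tree Swallow (r = -0.73), Barn Swallow (-0.72), Eastern Bluebird (-0.66) and Eurasian Tree Sparrow (-0.64), of which Eastern Bluebird came to -0.41 without its 2 farthest birds. TH with DRD2 was negative in 9 of 10 species and passed in 3 by Pearson's r, namely Tree Swallow (-0.67), Barn Swallow (-0.65) and Eurasian Tree Sparrow (-0.64), and in Barn Swallow alone by Spearman's rho. Prothonotary Warbler went the other way, with TH at r = 0.46 to DRD1 (adjusted p = 0.293) and 0.68 to DRD2 (adjusted p = 0.0736) by permutation, and American Robin had 0.07 between TH and DRD1. Over the sexes r of DRD2 with DRD1 was 0.88 in males and 0.92 in females, that of TH with DRD1 was -0.34 in males and -0.57 in females, and that of TH with DRD2 was -0.30 in males and -0.49 in females. Whether these values differ between species or sexes was not tested.

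**Figure D4:**
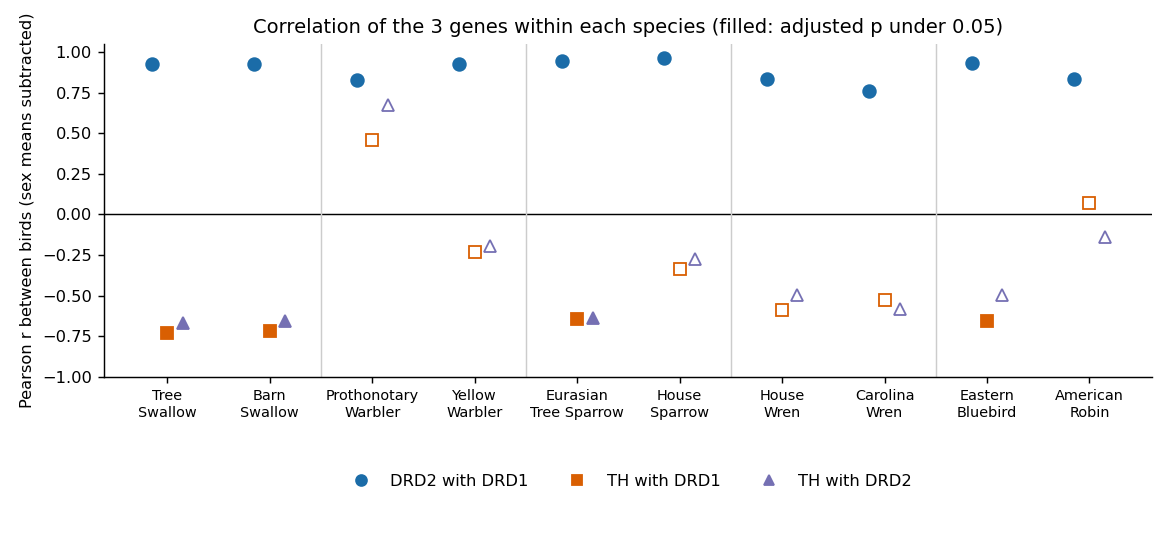
Pearson r between birds within each species, after sex means were taken off, for DRD2 with DRD1 (circles), TH with DRD1 (squares) and TH with DRD2 (triangles), n = 12 or 13; filled symbols have an adjusted p under 0.05. The circles lie between 0.76 and 0.96 in all 10 species, while the squares and triangles are mostly below 0 and above it in Prothonotary Warbler.

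The receptors followed the other striatal genes just as closely. A score was made of 25 striatal neuron markers without the 3 genes, of which 19 remain without the genes of GABA neurons in general. The score was the mean standardized log2 CPM of all 25. DRD1 had r = 0.94 with it (rho = 0.93, permutation p = 1e-05) and DRD2 r = 0.91 (rho = 0.90, permutation p = 1e-05), and within species r ran from 0.88 to 0.96 for DRD1 and from 0.82 to 0.95 for DRD2. The score went with 87.9% of the variance of DRD1 and 83.5% of that of DRD2 between birds of a species and sex, and with 11.3% of that of TH. TH had r = -0.34 with it (rho = -0.29, permutation p = 0.00143, adjusted p = 0.00172 over 6 relations), negative in 7 species and positive in 3. With the score taken out of both, r of DRD2 with DRD1 was 0.30, that of TH with DRD1 was -0.44 and that of TH with DRD2 was -0.25. The value for the receptors was thus far smaller than the 0.90 without the score, while that of TH with DRD1 was close to the -0.46 without it. A score of 18 pallial excitatory neuron markers ran against the receptors, with r = -0.36 for DRD1 (permutation p = 0.00027) and r = -0.40 for DRD2 (permutation p = 9e-05), and had r = 0.11 with TH (permutation p = 0.259). The striatal score also differed between species. Its mean was positive in both sexes of the wrens and warblers, such as 0.46 in Yellow Warbler females. It was negative in both sexes of the swallows and thrushes, such as -0.35 in Barn Swallow females. In both sparrows it was negative in females (-0.13 and -0.21) and positive in males (0.07 and 0.04). The part of striatal content in differences of the receptors between species was not tested.

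By gene, 16 of the 25 striatal markers had r above 0.5 with DRD1 and 15 with DRD2, where 3.66% and 2.69% of 10614 genes did, and 0 had it with TH (0.660% of genes). RASD2, a GTPase of striatal neurons also called Rhes, had r = 0.95 with DRD1 and 0.87 with DRD2. ADORA2A, an adenosine receptor, had 0.92 and 0.87, TAC1, the substance P precursor, 0.84 and 0.80, and DLX6, a transcription factor of GABA neurons, 0.88 and 0.81. PPP1R1B, which encodes the dopamine-regulated phosphatase inhibitor DARPP-32, had 0.62 with DRD1 and 0.75 with DRD2. Not all markers followed: SCN4B, a sodium channel subunit, had -0.50 with DRD1, and RARB, a retinoic acid receptor, -0.16. Of the 18 pallial markers CAMK2A, a calcium-dependent kinase of forebrain neurons, was the exception at 0.78 with DRD1, while SLC17A6, the vesicular glutamate transporter VGLUT2, had -0.63 with DRD1, -0.70 with DRD2 and 0.41 with TH.

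**Figure D5:**
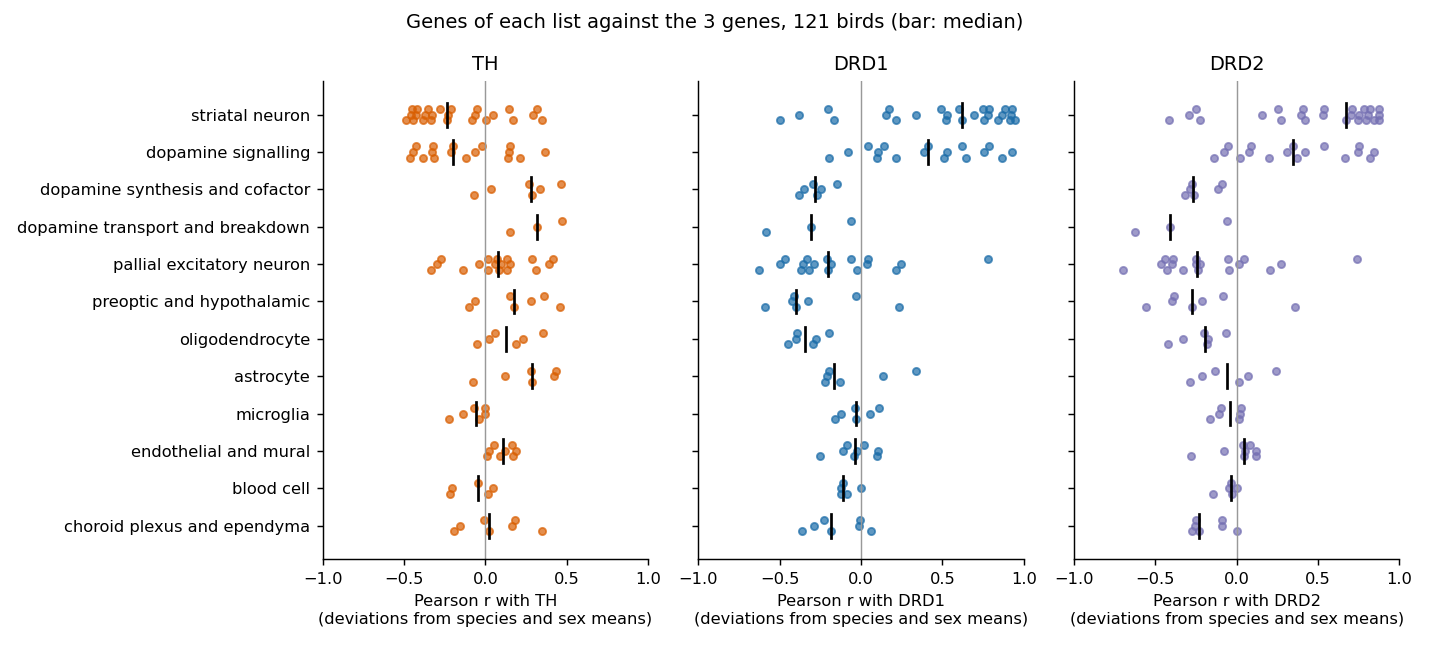
Pearson r of the genes of 12 lists with TH, DRD1 and DRD2 over 121 birds, on deviations from species and sex means, 1 point a gene without the 3 themselves, with a bar at the median of the list. Striatal markers stand high for DRD1 (median 0.62) and DRD2 (0.67) and lean below 0 for TH (-0.24), while no gene of any list reaches 0.5 with TH.

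The other genes of the dopamine pathway were mixed. Of 4 receptor genes with a row, DRD5, another D1-class receptor, had r = 0.95 with DRD1, 0.92 with DRD2 and -0.50 with TH, while DRD3 had -0.12, -0.03 and 0.11 at a median of only 3.85 CPM. DRD1 and DRD5 are related genes, and reads that could fit either may have been split between them by the counting, so their likeness is uncertain to that extent. Of 17 genes of dopamine signalling in the receiving cell, 8 had r above 0.5 with DRD1 and 6 with DRD2, and 5 of the 8 are also among the striatal markers above. Among them were ADCY5, the main adenylyl cyclase of the striatum (0.93 and 0.84), PDE10A, a phosphodiesterase of striatal neurons (0.87 and 0.82), and RGS9, a brake on G protein signalling (0.79 and 0.74). The median over these 17 genes was 0.41 with DRD1, 0.35 with DRD2 and -0.20 with TH, against -0.03, -0.02 and -0.01 over all genes. The other 9 did not reach 0.5 with DRD1, such as GRK2, a receptor kinase, at -0.20. None of the 6 other genes of synthesis and its cofactor reached 0.5 with TH or -0.5 with a receptor. DDC, which makes dopamine from L-DOPA, had r = 0.47 with TH, -0.14 with DRD1 and -0.09 with DRD2, and SLC18A2, the transporter VMAT2 that loads dopamine into vesicles, had 0.47, -0.58 and -0.62. The median over the 6 other genes of synthesis and its cofactor was 0.28 with TH, -0.28 with DRD1 and -0.27 with DRD2. DRD4, SLC6A3, MAOA and MAOB were not analysed here.

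Genes most like each of the 3 were taken by r over the 121 birds, among genes with a symbol and a mean of at least 5 CPM. For DRD1 they were RASGRP1 (0.96), an exchange factor for Ras, DRD5, RASD2, DLK1, PDE7B, ADCY5, GABRA5 and NGEF, the last at 0.92, each positive in all 10 species. For DRD2 they were DRD5 (0.92), DRD1, PDE7B, RGS10, ADRA2C, SYNDIG1L, ADORA2A and KCNH4, the last at 0.87. Genes with r above 0.5 numbered 388 for DRD1 and 284 for DRD2, not counting the 3 themselves. Of these 258 were the same, 66.5% of the DRD1 set and 90.8% of the DRD2 set. A large overlap follows from the close r of the receptors with each other, so it adds nothing to that r. The lowest values belonged to ADCYAP1, the neuropeptide PACAP, at -0.67 for DRD1, followed by TIMP2 and SLC17A6, and for DRD2 to SLC17A6 at -0.70, CXXC5 and KLC1. TH had a looser following: PLCB4, a phospholipase C, at 0.66, CDH13, UHMK1, KIF26B, BTBD11, DNM1, CLSTN2 and SH3GL2, the last at 0.59, again positive in all 10 species. Of the 70 genes with r above 0.5 to TH, 0 were in the sets of DRD1 or DRD2. The negative r of TH with both receptors leaves hardly any room for a shared gene, so this count adds nothing to it. Among the genes most opposed to TH were CAMKV, at -0.59, and IPO13, at -0.56 and negative in all 10 species.

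Scores of some other tissues moved with these relations, and those of others hardly did. The score of the 7 preoptic and hypothalamic markers had r = 0.36 with TH, -0.55 with DRD1 and -0.47 with DRD2, and its gene PMCH, a hypothalamic neuropeptide, had 0.46, -0.59 and -0.56, with 0 counts in 4 of 121 birds. PMCH had the largest r of the 7 with each of the 3 genes, while GAL, the neuropeptide galanin, had -0.06, -0.03 and -0.08, and SIX6, a hypothalamic transcription factor, went the other way at -0.10, 0.24 and 0.36. The score of 4 genes of dopamine neuron identity had 0.33, -0.65 and -0.64. Of these genes NR4A2, the one with the most reads, had -0.03, -0.27 and -0.27. LMX1B, EN1 and EN2, with fewer reads, had 0.37, 0.26 and 0.19 with TH. For 6 oligodendrocyte markers the score had 0.19, -0.47 and -0.33. The score of 6 astrocyte markers had 0.41 with TH, -0.12 with DRD1 and -0.11 with DRD2. In the same order of genes the microglia score had -0.15, -0.04 and -0.08. That of endothelial and mural cells had 0.19, -0.09 and 0.01, and that of blood cells -0.10, -0.11 and -0.06. The choroid plexus and ependyma score had 0.05, -0.32 and -0.35. The log2 total count had 0.22, -0.12 and -0.04. These r are descriptions over the same 121 libraries, and the part of neighbouring tissue, glia or depth in the relations of TH, DRD1 and DRD2 was not tested.

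The ratio of the receptors within a bird varied less than either, with an SD of 0.37 in log2 DRD1 over DRD2 between birds of a species and sex, against 0.66 for DRD1 and 0.81 for DRD2. Between the 2 species of a family edgeR called 49.0% to 56.9% of all single genes. The share for ratios of other genes was not computed. With the sexes pooled, the ratio of DRD1 to DRD2 differed between obligate nester and partner in all 5 families. It was 2.54 ± 0.36 in House Wren and 3.46 ± 0.29 in Carolina Wren (log2, SD, n = 12 each), a difference of -0.92 (permutation test, two-sided, adjusted p = 7.5e-05 over 5 families). Eurasian Tree Sparrow had 2.48 ± 0.21 and House Sparrow 3.34 ± 0.52, a difference of -0.86 (permutation, adjusted p = 7.5e-05, n = 12 each). Of 12 House Wrens 10 had a ratio below that of the lowest Carolina Wren, and 9 of 12 Carolina Wrens one above that of the highest House Wren. Of 12 Eurasian Tree Sparrows 4 were below the lowest House Sparrow, and 10 of 12 House Sparrows were above the highest Eurasian Tree Sparrow. The smaller differences were -0.31 between the swallows (2.46 ± 0.35 in Tree Swallow and 2.76 ± 0.37 in Barn Swallow), -0.27 between the warblers (2.99 ± 0.22 in Prothonotary Warbler and 3.26 ± 0.34 in Yellow Warbler) and 0.48 between the thrushes (3.00 ± 0.34 in Eastern Bluebird and 2.52 ± 0.68 in American Robin), each with an adjusted p of 0.0464 by permutation. These 3 calls rest on a narrow margin, since leaving out 1 bird ended the call for 15 of the 25 swallows, 6 of the 24 warblers and 13 of the 24 thrushes, while those of the wrens and sparrows stayed past the threshold without any 1 of their 24 birds. Obligate nesters had the lower ratio in 4 families and the higher in Turdidae, where the difference without Eastern Bluebird male 12, a library set apart, was 0.44 (permutation, adjusted p = 0.0657). The thrush means were 3.01 in Eastern Bluebird and 2.17 in American Robin among females, but 2.99 and 2.87 among males. The swallows and the warblers passed in neither sex alone. The ratio cancels the scaling of the library but not a difference between species in gene length or in how many reads of a gene could be assigned. Among the striatal genes ADCY5 had 203 ± 67.7 CPM in Eurasian Tree Sparrow and 1.13 ± 0.64 CPM in House Sparrow (SD, n = 12 each), a log2 difference of 7.46. The part of read assignment in differences of TH, DRD1 and DRD2 between species was not tested.

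The comparison within families was also fitted with each bird's deviation in the striatal score as a covariate, which compares the species at a like deviation from their own means. The deviation is taken from the mean of the bird's species and sex. The covariate therefore cannot take out a difference between species in the score, and these fits are not adjusted for how much striatum each species' samples hold. DRD2 then passed in all 5 families (edgeR, with 55.9% of all genes called between the swallows, 58.0% between the warblers, 50.4% between the sparrows, 58.2% between the wrens and 56.9% between the thrushes). It differed by 0.68 ± 0.16 between the swallows (log2 difference ± SE, obligate nester over partner, adjusted p = 0.000418), by 0.41 ± 0.12 between the warblers (adjusted p = 0.0037) and by 0.52 ± 0.15 between the sparrows (adjusted p = 0.00394). The wrens differed by 0.87 ± 0.13 (adjusted p = 3.3e-06) and the thrushes by -0.49 ± 0.19 (adjusted p = 0.0264). The difference between the sparrows was larger than the 0.31 without the covariate, while the other 4 lay near their values without it. The SE of DRD2 was smaller in all 5 families, and the difference in the thrushes was negative with and without the covariate. DRD1 passed in the swallows, at 0.36 ± 0.10 (adjusted p = 0.0033), and in the sparrows, at -0.32 ± 0.10 (adjusted p = 0.00707). In the other families its adjusted p ran from 0.0799 to 0.659. TH passed in none of the 5, with the lowest adjusted p, 0.0933, between the swallows (-0.39 ± 0.20). With the covariate 7 of the 15 comparisons were thus called, against 1 of 15 without it. A share of 7 in 15 is no higher than the 50.4% to 58.2% of all genes called in the same fits.

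Of 46 genes of the dopamine lists 31 had a row, and the share called between the species of a family was below or close to that of all genes. Between the swallows 6 were higher and 5 lower in the obligate nester (35.5% called, against 54.8% of all genes, by edgeR), between the warblers 4 and 14 (58.1%, against 55.4%), and between the sparrows 6 and 7 (41.9%, against 49.0%). Between the wrens 8 were higher and 7 lower (48.4%, against 56.9%), and between the thrushes 6 and 6 of 30 tested (40.0%, against 56.3%). The list median was 0.16, -0.22, -0.06, 0.07 and -0.06 on the log2 scale, against 0.04, 0.00, -0.02, 0.02 and 0.02 over all genes. PTS, an enzyme that makes tetrahydrobiopterin, the cofactor TH needs, was higher in Tree Swallow at 29.2 ± 6.81 CPM than in Barn Swallow at 15.8 ± 6.79 CPM (log2 difference 0.97) and lower in House Wren at 9.45 ± 3.53 CPM than in Carolina Wren at 31.6 ± 9.25 CPM (-1.71). DDC was lower in Prothonotary Warbler at 22.2 ± 5.37 CPM than in Yellow Warbler at 36.5 ± 7.00 CPM (-0.70) and higher in House Wren than in Carolina Wren (0.61). SLC18A2 was higher in Eastern Bluebird than in American Robin (0.98). PPP1R1B was lower in House Wren at 101 ± 65.2 CPM than in Carolina Wren at 239 ± 122 CPM (-1.41), between the same species where DRD2 was higher. Of 25 striatal markers 4 were higher and 10 lower there, a share of 56.0% called that is close to the 56.9% of all genes.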

How the data were processed

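The deposited table holds raw counts of reads per gene for 121 birds, whole numbers, not normalized by the authors. The submitters' processing notes name featureCounts with Subread 2.02z, SAMtools 1.10, Bowtie2 2.4.4, fastp 0.20.1 and Trimmomatic 0.36, and the library kit was stranded mRNA, per the labels' protocols. The genome build is not stated in the sources used here. Reads of 10 species were counted on a shared set of genes, whose column is headed as zebra finch protein identifiers per the file headers, so a species' reads may be assigned less well for some genes.

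Counts were analysed with R 4.3.3, edgeR 4.0.16, limma 3.58.1, DESeq2 1.42.0 and Python 3.11.15. CPM are scaled by TMM over all birds, and log2 CPM has a prior count of 2. Tests were fitted over all genes passing filterByExpr, with Benjamini-Hochberg adjustment and a threshold of 0.05, two-sided: per family with sex as covariate, over all birds and per species for sex, and with limma on 10 species means (4 residual degrees of freedom) for strategy. Correlations used deviations from species and sex means and 100000 permutations within species and sex. Genes most alike were the 8 highest and 3 lowest by r at a mean of at least 5 CPM; list genes were named as up to 4 called members a list with the largest differences in a family. The log2 ratio of DRD1 to DRD2 used counts plus 0.5. Scripts were tested on simulated data.

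TH, DRD1, DRD2, the lists and the 6 libraries were chosen with earlier results of these data known. Libraries labelled as separate birds are the replicates; within groups no 2 libraries were alike within sampling noise. Bird numbers repeat across groups but do not pair birds, so fits had no block. P-values of edgeR assume the labels as given. Alternatives tried were library size alone, DESeq2, limma-voom, no filter, each sex alone, the block, a striatal score covariate, other scales, and birds, species or families left out. Sequences were not used here. Some genes that these rules name are not reported here.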

Additional observations from a re-analysis of the deposited data

Results flagged for a closer look

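Among the 60 groups of a gene, species and sex, 2 held a bird far from the others of its group, where chance gives about 1 in 20, or about 3. TH was 29.3 CPM in Barn Swallow female 8, against 7.25 to 11.8 CPM in the other 5 females of the species. The same bird had 30.1 CPM of DRD1 and 4.72 CPM of DRD2, the lowest of the female Barn Swallows in both. DRD1 was 19.8 CPM in Eastern Bluebird female 11, against 63.0 to 120.4 CPM in the other 5 females, and this bird had 26.5 CPM of TH, the highest of its species.

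The difference of DRD2 between obligate nester and partner varied with the family (edgeR F test over all birds, adjusted p = 0.0451), being positive in 4 families and negative in Turdidae. Of all genes 89.5% passed the same test, so passing it does not set DRD2 apart. Without the 6 libraries set apart the adjusted p was 0.0577.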

How the results depend on the processing

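The report's 97 results were recomputed under 823 alternatives. Those that leave out 1 wren for DRD2, 1 bird for the ratio of DRD1 to DRD2, or Eastern Bluebird male 13 were added after seeing the data. In 718 the result stayed. For a test this means the direction and the side of the threshold, and for a count of genes or steps a like size. For the rest the cause was not tested. Values are log2 differences, obligate nester over partner or male over female.

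No called difference of TH, DRD1 or DRD2 changed sign. Among females alone TH was 0.036 in Hirundinidae and 0.45 in Turdidae, and DRD2 in Troglodytidae lost its call (0.51). Among males alone TH was called in Hirundinidae (-0.71), and the sign turned for DRD1 there (-0.049), TH in Parulidae (0.017), Passeridae (0.035) and Troglodytidae (-0.088) and DRD1 in Troglodytidae (0.084). Library size alone gave DRD1 -0.025 in Parulidae, -0.010 on species means and -0.0016 by sex in Carolina Wren, and limma-voom gave TH 0.056 in Passeridae. The striatal covariate added calls for DRD2 (0.68, 0.41, 0.52 and, in Turdidae, -0.49) and DRD1 (0.36 and -0.32), as the report gives. By sex the covariate was the score itself, not its deviation, so it also takes in any sex difference in the markers. That covariate turned DRD2 in Barn Swallow (-0.12), Eurasian Tree Sparrow (-0.0073), Tree Swallow (0.10) and Yellow Warbler (0.065). It also turned DRD1 in Carolina Wren (-0.013), Eurasian Tree Sparrow (-0.053), House Wren (-0.032) and Tree Swallow (0.0032), and TH in Prothonotary Warbler (0.17), where 505 genes were called, against 290. Without the libraries set apart TH was 0.036 in Turdidae, and by sex DRD2 was 0.027 over all species, 0.025 in Carolina Wren and 0.027 in House Sparrow, with TH at -0.065 there. Without Eastern Bluebird male 13 TH was 0.043 and DRD1 -0.018 in Turdidae. Without the libraries set apart sex by strategy called 11 genes, against 6, and DRD2 by family had F = 2.42. The sex test in Carolina Wren called 250 genes without them and 20 by DESeq2, against 0; DESeq2 called 458, against 290, in Eurasian Tree Sparrow and 897, against 496, in House Wren. Males alone called 3627 genes between the thrushes, against 5929.

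Bird numbers did not pair birds: of 40 same-numbered pairs of sexes 15 had a correlation over 0.1 (median 0.02), and of 36 pairs of species 10 (median -0.04). With the replicate block TH was 0.050 in Parulidae, -0.19 in Troglodytidae and 0.33 in Turdidae, and DRD1 0.13 in Troglodytidae and -0.22 in Turdidae. By sex it turned DRD2 in Barn Swallow (-0.12) and House Sparrow (0.63), DRD1 in Carolina Wren (-0.15), and TH in House Sparrow (-1.18) and Tree Swallow (0.018), and in House Wren it called TH (-1.17, edgeR adjusted p = 0.0376) and DRD2 (0.96, adjusted p = 0.0379). The block called 2029 genes between the thrushes, and by sex 6 in American Robin (against 211), 80 in Barn Swallow (228), 10 in Eastern Bluebird (193), 127 in Eurasian Tree Sparrow (290), 7 in House Sparrow (190), 221 in House Wren (496), 122 in Prothonotary Warbler (290) and 206 in Tree Swallow (352).

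The ratio of DRD1 to DRD2 was past the threshold in neither sex alone in Hirundinidae (females -0.23, males -0.38) and Parulidae (-0.17 and -0.36), nor in Turdidae among males (0.12) or without Eastern Bluebird male 12 (0.44). With 1 bird left out it ran from -0.36 to -0.25 in Hirundinidae, -0.31 to -0.21 in Parulidae and 0.39 to 0.59 in Turdidae. The call was lost, at an adjusted permutation p of 0.0502 to 0.0893, without any 1 of Tree Swallow females 3, 4, 5, 7 and 13 and males 1, 2, 4 and 5, and Barn Swallow females 3 and 7 and males 1, 2, 5 and 6. In Parulidae it was lost without any 1 of Prothonotary Warbler female 5 and males 5 and 7, and Yellow Warbler female 9 and males 2 and 4. In Turdidae it was lost without any 1 of Eastern Bluebird females 9, 12, 14 and 16 and males 9, 12 and 13, and American Robin females 2, 3, 4 and 8 and males 9 and 11. The wrens ran from -0.98 to -0.88 and the sparrows from -0.94 to -0.79, DRD2 between the wrens from 0.81 to 0.99, all past the threshold. On species means without 1 family DRD1 ran from -0.047 (without Hirundinidae) to 0.13. Depth limits TH most, with 7 to 194 reads a bird.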
